A study of Mus musculus with 36 samples.

Results

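The genes described here are 10 nuclear receptors of the liver other than the LXRs, taken by symbol from a deposited expression table that lists 49315 genes. They are Nr1h4 (FXR), Nr0b2 (SHP), Nr1i2 (PXR), Nr1i3 (CAR), Hnf4a, Nr5a2 (LRH-1), Ppara, Pparg, Ppard and Rora. All 10 were found once in the table, and all 10 reached 1 TPM in 4 or more samples, the filter used. Polyadenylated liver RNA had been sequenced from 36 males, mice of 11 to 12 weeks of age that formed 9 groups of 4. The W/W controls carried LXRalpha with tryptophan (W) at residue 441 on both alleles, the W/F mice carried phenylalanine (F) there on 1 allele, and the F/F mice carried it on both, an exchange made with CRISPR. Mice of each genotype either stayed on normal chow, or ate a MASH diet (Teklad TD.96121, high in fat and cholesterol) for 4 weeks with daily gavage of vehicle over the last 2 weeks, or ate that diet with 10 mg/kg of the LXR agonist T0901317 by daily gavage over the same weeks. MASH stands for metabolic dysfunction-associated steatohepatitis, a fatty liver with inflammation. The chow mice were a separate cohort for which no gavage is stated, so diet, gavage and cohort cannot be told apart. In the series text LXRalpha stands beside the symbol Nr1h2, although Nr1h3 is its usual symbol, and a TPM table cannot show the amino acid exchange itself. Each value comes from whole liver, where fewer cells of a type and less RNA per cell cannot be told apart.

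Nuclear receptors are transcription factors, many of which are switched by small lipophilic ligands. FXR is the bile acid receptor of hepatocytes, and SHP, its target, lacks a DNA-binding domain and represses bile acid synthesis, in part through LRH-1. PXR and CAR respond to drugs and other foreign compounds and raise the Cyp3a, Cyp2b and Cyp2c oxidases. HNF4A keeps up the hepatocyte programme of apolipoproteins, clotting factors and gluconeogenic enzymes. PPAR-alpha drives fatty acid oxidation in the fasting liver, PPAR-gamma drives lipid storage and is best known from adipocytes, and PPAR-delta is expressed in most tissues. ROR-alpha links lipid metabolism to the circadian clock. FXR, PXR, CAR and the PPARs bind DNA as partners of RXR, as do the LXRs, whereas LRH-1 and ROR-alpha can bind alone. T0901317 is also known to act on PXR, FXR and the RORs, beside the LXRs.

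Values are TPM (transcripts per 1000000 transcripts), which are corrected for gene length, so that levels can be set side by side between genes. Depth, recovered from the step size of low values, was 18.1 to 35.8 times 1000000 reads per library, and a library held between 92.0 reads (Nr0b2, the fewest) and 19327 reads (Hnf4a, the most) of a receptor. Fold changes below are differences of log2(TPM + 1) fitted with limma over all 36 libraries, given with their standard error and with p-values adjusted by Benjamini-Hochberg over the 16638 genes tested, and a gene was called at an adjusted p under 0.05. The median gene was itself shifted, by 0.70 between F/F and W/W livers on vehicle, by 0.52 between W/F and W/W livers on vehicle and by -0.49 under T0901317 in W/F livers. It was shifted by 0.29 and 0.43 between F/F and W/W livers on chow and under T0901317, by 0.39 and 0.32 with the diet in W/F and F/F livers, and by -0.24 under T0901317 in F/F livers. Most fold changes of the receptors are followed by their value after dividing all values of a library by its median-of-ratios size factor (rescaled). Those of single genes of the other lists are given on the deposited scale only. Rescaling assumes an unchanged median gene and the deposited scale an unchanged total, and which of them holds was not tested. Cell type markers moved with the groups. Summed over 9 of 9 markers, the macrophage level was 156 to 233 TPM in W/W chow and 239.7 to 413 in W/W vehicle livers, against 2883 to 3681 in W/F vehicle and 3155 to 4109 in F/F vehicle livers, and under T0901317 it was 260.0 to 553 (W/W), 188 to 1356 (W/F) and 1349.5 to 2118 TPM (F/F). The sum of 5 of 5 bile duct markers was 54.0 to 61.4 TPM in W/W vehicle and 2908 to 3554 TPM in F/F vehicle livers, and that of 8 of 8 hepatocyte markers was 90573 to 114983 and 41054 to 46456 TPM. How far cell make-up entered the values below was not tested. The labels do not say whether replicates came from separate litters or cages, so p-values measure the spread between these samples.

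The genes lie on several chromosomes of GRCm38, each protein-coding in GENCODE M21: Nr1h4 at chr10:89454234-89533585, Nr0b2 at chr4:133553376-133556536, Nr1i2 at chr16:38248323-38294824, Nr1i3 at chr1:171213970-171220701, Hnf4a at chr2:163506808-163572910, Nr5a2 at chr1:136842571-136960448, Ppara at chr15:85734983-85802819, Pparg at chr6:115360951-115490399, Ppard at chr17:28232700-28301474 and Rora at chr9:68653786-69388246. The promoters of 4 receptors are shown: Nr1i2 and Nr5a2, which T0901317 moved in opposite directions in W/F livers, and Nr1h4 and Nr0b2, of which the second is a known target of the first and of LRH-1. RefSeq (GRCm38.p6) gave promoters for 10 of the 10 genes, 14 in all. The 250 bases before the start site are printed 5′ to 3′ on the gene's own strand, with capitals for a match to AGGTCA, the half-site most receptors of this family bind, or to CAAGGNCA, the longer form bound by LRH-1, on either strand.
Nr0b2 (chr4:133553126-133553375, plus strand): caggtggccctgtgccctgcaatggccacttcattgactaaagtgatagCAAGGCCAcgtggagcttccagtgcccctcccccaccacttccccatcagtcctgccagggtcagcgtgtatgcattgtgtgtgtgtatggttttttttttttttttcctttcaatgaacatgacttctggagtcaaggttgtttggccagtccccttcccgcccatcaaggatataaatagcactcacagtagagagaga
Nr1h4, a start inside the annotated gene (chr10:89506659-89506908, minus strand): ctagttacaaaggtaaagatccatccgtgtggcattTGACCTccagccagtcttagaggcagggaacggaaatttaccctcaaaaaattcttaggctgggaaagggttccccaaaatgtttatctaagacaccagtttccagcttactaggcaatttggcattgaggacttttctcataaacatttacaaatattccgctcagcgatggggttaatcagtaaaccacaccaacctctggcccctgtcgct
Nr5a2, the promoter farther upstream of 2 (chr1:136960449-136960698, minus strand): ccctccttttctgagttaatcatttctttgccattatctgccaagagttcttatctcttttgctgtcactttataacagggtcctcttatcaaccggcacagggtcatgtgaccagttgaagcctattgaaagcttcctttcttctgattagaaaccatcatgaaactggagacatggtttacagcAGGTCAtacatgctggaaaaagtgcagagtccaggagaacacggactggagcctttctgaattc
Nr1i2 (chr16:38294825-38295074, minus strand): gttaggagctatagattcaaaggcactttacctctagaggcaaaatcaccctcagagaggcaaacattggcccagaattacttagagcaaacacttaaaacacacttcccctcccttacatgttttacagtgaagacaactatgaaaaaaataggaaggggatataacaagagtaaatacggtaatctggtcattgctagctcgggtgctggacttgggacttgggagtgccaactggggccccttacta

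In the window from 250 bases before to 50 bases after the start, AGGTCA occurred in 16.3% of the 32817 RefSeq promoters and CAAGGNCA in 6.71%, and the 2 overlap wherever N is T. Nr0b2 held CAAGGNCA at -201 to -194 from its start, Nr1h4 held AGGTCA on the opposite strand at -214 to -209, and the second Nr5a2 promoter held it at -64 to -59. The first 2 of 3 Pparg promoters held it at -28 to -23 and at -9 to -4. The promoters of Nr1i2, Nr1i3, Hnf4a, Ppara, Ppard and Rora held none of these letters. Pairs of half-sites (AGGTCA or, counted alike, GGGTCA or, with other letters inside, AGTTCA or the form GGTTCA) in direct repeat with 1, 2 or 4 bases between them occurred in 0.222%, 0.268% and 0.0823% of promoters, inverted repeats with 1 base between them in 0.0366%, CAAGGTCA in 1.56% and CAAAGTCCA, a form bound by HNF4A, in 0.475%. None of these was found in the 14 promoters. Such matches are descriptions of letters, not of bound sites.

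Hnf4a had the highest level of the receptors and Ppard the lowest. The mean over the 9 groups was 311 TPM for Hnf4a, 143 for Nr1h4, 103 for Nr1i2, 61.4 for Nr1i3, 49.4 for Nr0b2, 41.5 for Ppara, 26.2 for Nr5a2, 20.01 for Pparg, 10.4 for Rora and 5.86 for Ppard. On the deposited scale Nr1h4 and Hnf4a varied least between groups, with 1.27-fold and 1.46-fold between the highest and the lowest group mean. Ppara varied most there, 3.54-fold, followed by Ppard with 2.94-fold and Pparg with 2.83-fold. After rescaling, Nr1h4 and Hnf4a no longer varied least. Their rescaled group means ran from 86.2 (F/F vehicle) to 196 (W/W vehicle) and from 202 (F/F vehicle) to 403 (W/F chow). Those of Ppard ran from 4.05 (W/W chow) to 7.15 (F/F vehicle). When the 9 groups were put in order of their means, most neighbours overlapped in their samples: 8 of 8 neighbouring pairs for Nr1h4, Nr0b2, Nr1i3, Hnf4a, Ppara and Pparg, 7 of 8 for Nr5a2, Ppard and Rora, and 6 of 8 for Nr1i2. Overlap of neighbours was not counted for other genes, so these counts describe the receptors without a comparison to all genes.

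**Figure D1:**
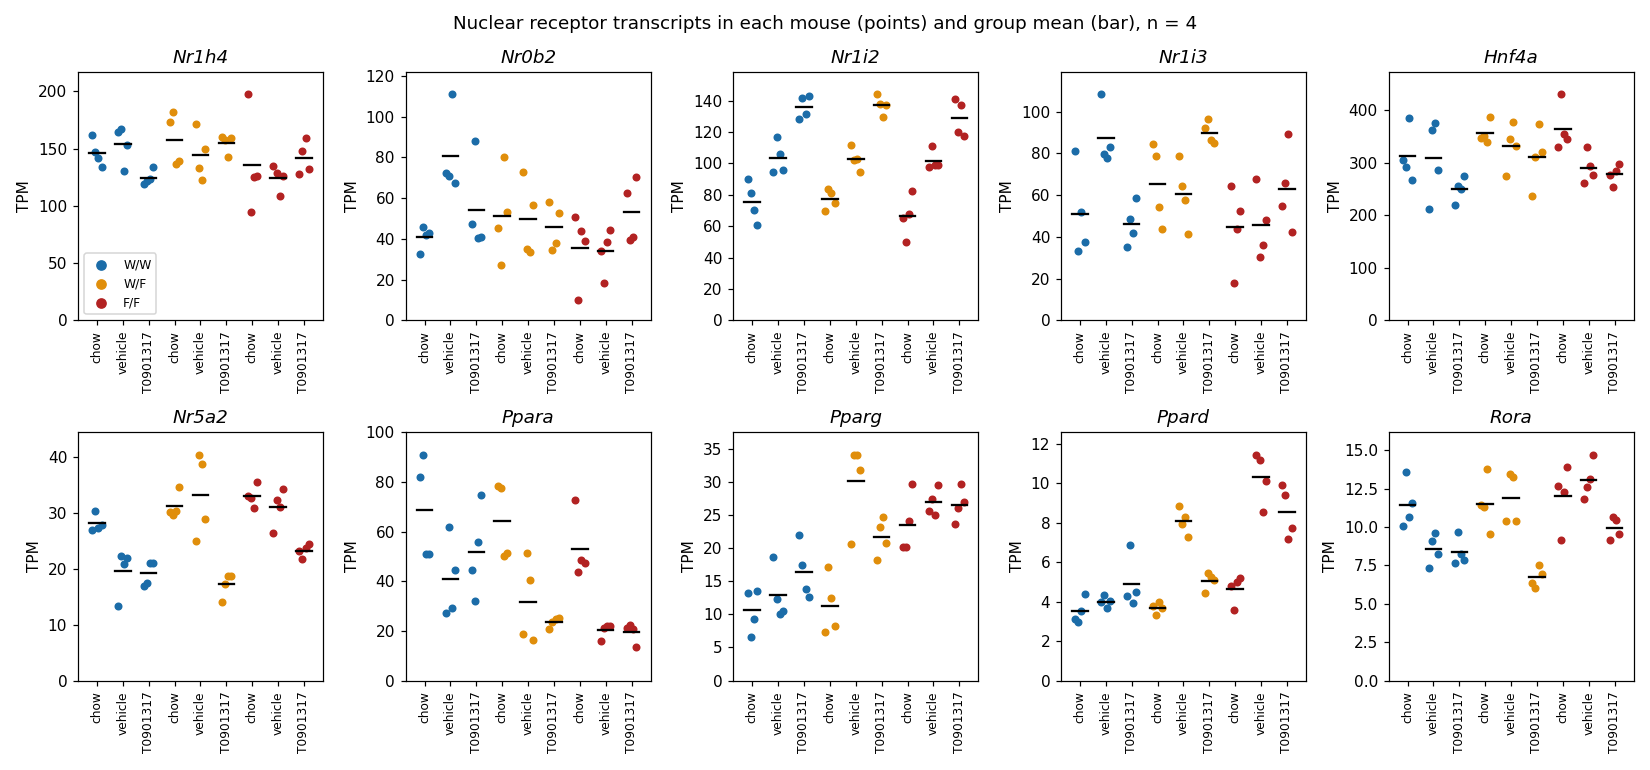
TPM of each of the 10 receptors in the 9 groups, 1 panel a gene, with points for the 4 livers of a group and a bar for their mean. Nr1i2 sits in 3 separate layers by treatment, and Ppard is raised in the W/F vehicle group and in the F/F vehicle and T0901317 groups.

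On chow, receptors were called between F/F and W/W livers and none between W/F and W/W livers. For W/F against W/W livers on chow, 0 of the 10 genes were called higher and 0 lower (0.487% of all genes called), and 0 and 0 after rescaling (0.601%), and none of the 10 had an unadjusted p under 0.05 by limma. Between F/F and W/W livers on chow, 2 of the 10 genes were called higher and 0 lower (46.7% of all genes called), and 1 and 3 after rescaling (29.9%). On the MASH diet with vehicle, some receptors were called in both mutant genotypes. Between W/F and W/W livers on vehicle, 4 of the 10 genes were called higher and 0 lower (68.5% of all genes called), and 2 and 6 after rescaling (53.1%). Between F/F and W/W livers on vehicle, 4 of the 10 genes were called higher and 4 lower (76.5% of all genes called), and 1 and 6 after rescaling (59.1%). Under T0901317, between W/F and W/W livers, 1 of the 10 genes was called higher and 1 lower (9.88% of all genes called), and 1 and 1 after rescaling (13.4%). Between F/F and W/W livers under T0901317, 2 of the 10 genes were called higher and 1 lower (63.2% of all genes called), and 1 and 3 after rescaling (46.9%). On the deposited values the share of receptors called in these 6 comparisons was below that of all genes or within about 1 gene of it. On rescaled values W/F against W/W on vehicle had 8 of 10 called, above the share of all genes, a difference that was not tested. Leaving out 1 library moved the total from 2 to between 1 and 3 for F/F on chow, from 2 to between 0 and 1 for W/F under T0901317 and from 4 to at most 5 for W/F on vehicle, through the libraries named below with each gene.

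T0901317 itself moved few receptors in W/W livers and 1 receptor, Nr1i2, in the same direction in all 3 genotypes. T0901317 against vehicle gave these counts: in W/W livers 1 of the 10 genes was called higher and 1 lower (10.8% of all genes called), and 1 and 1 after rescaling (13.5%). In W/F livers 1 of the 10 genes was called higher and 3 lower (65.9% of all genes called), and 4 and 1 after rescaling (50.8%), and in F/F livers 1 of the 10 genes was called higher and 2 lower (35.1% of all genes called), and 2 and 0 after rescaling (16.3%). The MASH diet with vehicle against chow gave these: in W/W livers 1 of the 10 genes was called higher and 2 lower (12.9% of all genes called), and 3 and 1 after rescaling (15.4%). In W/F livers 3 of the 10 genes were called higher and 1 lower (61.0% of all genes called), and 2 and 5 after rescaling (54.9%), and in F/F livers 2 of the 10 genes were called higher and 1 lower (55.8% of all genes called), and 2 and 4 after rescaling (47.0%). The response itself was compared between genotypes by an interaction term. For the T0901317 response of W/F minus W/W, 1 of the 10 genes was called higher and 4 lower (58.5% of all genes called), and 4 and 0 after rescaling (44.0%). For that of F/F minus W/W, 1 of the 10 genes was called higher and 1 lower (30.4% of all genes called), and 3 and 0 after rescaling (17.4%). For the diet response of W/F minus W/W, 4 of the 10 genes were called higher and 0 lower (54.6% of all genes called), and 0 and 5 after rescaling (40.1%), and for that of F/F minus W/W, 2 of the 10 genes were called higher and 0 lower (46.0% of all genes called), and 1 and 3 after rescaling (26.8%). Leaving out 1 library, as named below with each gene, gave totals of 0 to 2 in W/W and 1 to 3 in F/F livers under T0901317, 1 to 4 in W/W and 3 to 4 in F/F livers with the diet, 4 to 6 and 1 to 3 for the differences of T0901317 responses and 3 to 5 and 2 to 3 for those of diet responses.

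**Figure D2:**
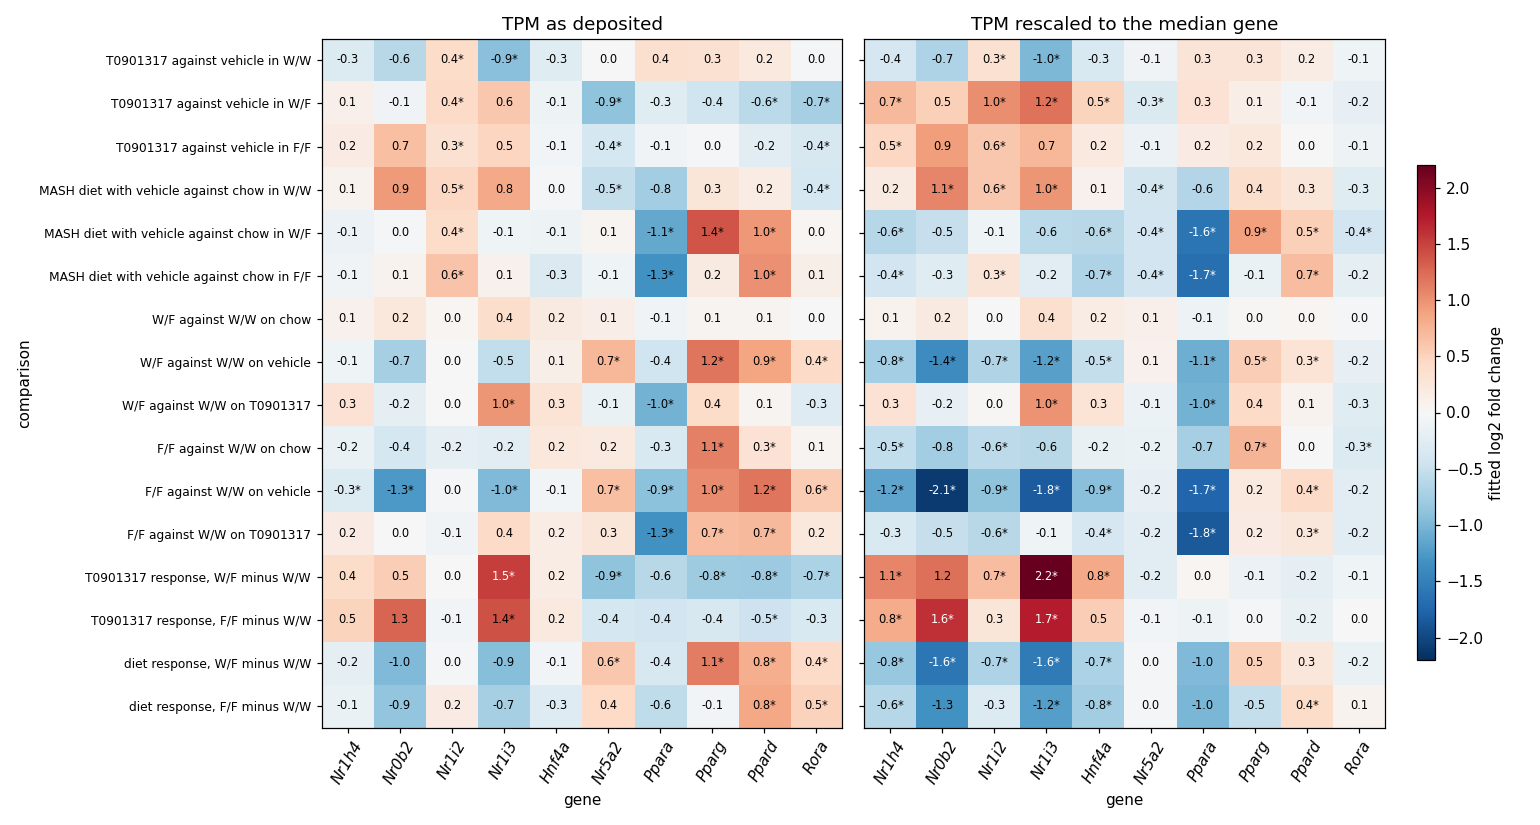
Fitted log2 fold change of the 10 receptors (columns) in 16 comparisons (rows) on the deposited TPM and on rescaled TPM, with an asterisk where the adjusted p was under 0.05. Nr1i2 is positive under T0901317 in all 3 genotypes in both panels, whereas Rora and Nr5a2 in the vehicle comparisons of genotypes lose their calls on the rescaled values.

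T0901317 raised Nr1i2 in all 3 genotypes, and the MASH diet raised it in W/W and F/F livers, under both scalings. Values here and below are in the order of replicates 1 to 4. On chow, Nr1i2 was 89.9, 81.2, 70.6 and 60.6 TPM (W/W), 69.6, 83.9, 81.1 and 74.6 (W/F) and 65.4, 50.1, 67.5 and 82.2 (F/F). With vehicle on the MASH diet it was 94.8, 117, 106 and 96.0 TPM (W/W), 112, 102, 103 and 94.7 (W/F) and 98.0, 111, 99.2 and 98.8 (F/F). With T0901317 it was 128, 142, 132 and 143 TPM (W/W), 144, 138, 129.9 and 138 (W/F) and 141, 119.8, 137 and 117 (F/F). Every liver given T0901317 lay above every vehicle liver, and every vehicle liver lay above every chow liver, on the deposited scale. Under T0901317 the log2 fold change was 0.40 ± 0.11 (adjusted p = 0.0153), rescaled 0.33 (adjusted p = 0.0388) in W/W livers. It was 0.41 ± 0.11 (adjusted p = 0.00152), rescaled 1.02 (adjusted p = 6.57e-09) in W/F livers, and 0.33 ± 0.11 (adjusted p = 0.01998), rescaled 0.60 (adjusted p = 2.09e-04) in F/F livers. The W/W call was lost without W/W vehicle replicate 1 (adjusted p = 0.0572) or 4 (0.0521), and the F/F call without F/F T0901317 replicate 1 (0.0543) or 3 (0.0710). The diet difference was 0.46 ± 0.11 (adjusted p = 0.00571), rescaled 0.59 (adjusted p = 4.46e-04) in W/W livers. The F/F difference was 0.63 ± 0.11 (adjusted p = 1.61e-05), rescaled 0.28 (adjusted p = 0.0316). The W/F difference was 0.41 ± 0.11 (adjusted p = 0.00184), rescaled -0.09 (adjusted p = 0.512), a reversal of sign that leaves it uncalled on the rescaled values. The response of W/F to T0901317 differed from that of W/W by 0.016 (95% interval -0.30 to 0.33) and that of F/F by -0.06 (-0.38 to 0.25), neither of them called, though the W/F difference was 0.69 (adjusted p = 5.09e-04) on rescaled values. Between F/F and W/W livers on chow Nr1i2 was not called on the deposited values (-0.19, adjusted p = 0.151), but it was without W/W chow replicate 4 (0.0340) or F/F chow replicate 4 (0.0297). After rescaling, F/F livers lay below W/W livers without overlap on chow, at 51.0 to 66.9 against 68.9 to 106. The same held under T0901317, at 94.7 to 125 against 155 to 173.

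Some target genes of PXR were called higher under T0901317 in W/W and F/F livers. In W/F livers 1 was called higher on the deposited and 5 on rescaled values. The share of all genes called, given above with each comparison, applies to every list below. Of the PXR targets under T0901317 in F/F livers, 4 of 8 were called higher and 0 lower (median log2 fold change 0.58, all genes -0.24), and 5 higher and 0 lower after rescaling (median 0.84). Of all genes 35.1% were called there on the deposited values. Cyp3a11, the main Cyp3a drug oxidase of mouse liver, rose by 1.65, Cyp3a25 by 1.56 and Cyp2c55 by 1.51. Cyp3a11 was 2132, 2070.2, 1964 and 2162 TPM in F/F vehicle and 4866, 5491, 8393 and 8191 TPM in F/F T0901317 livers. It was 3090 to 3532 TPM in W/F vehicle and 6443 to 7582 TPM in W/F T0901317 livers. In W/W livers it was 1065 to 1544 TPM with vehicle and 2784 to 3168 TPM with T0901317. Of the PXR targets in W/W livers given T0901317, 5 of 8 were called higher and 0 lower (median log2 fold change 1.18, all genes 0.06), and 4 higher and 0 lower after rescaling (median 1.16). The share of all genes called was 10.8% on the deposited values. Cyp2c55 rose by 2.89 there and the glutathione transferase Gsta1 by 1.60. The W/W count was 3 without W/W vehicle replicate 1, 3 or 4 and 2 without W/W T0901317 replicate 2. Of the PXR targets in W/F livers given T0901317, 1 of 8 was called higher and 2 lower (median log2 fold change 0.28, all genes -0.49), and 5 higher and 2 lower after rescaling (median 0.88), and Gsta1 fell, with a log2 fold change of -2.76, while Cyp3a25 rose by 1.15. The count of higher genes was 2 without W/F vehicle replicate 4 or without W/F T0901317 replicate 4. Between W/F and W/W vehicle livers 5 of 8 were called higher and 0 lower (median log2 fold change 2.03, all genes 0.52), and 4 higher and 3 lower after rescaling (median 1.39). Of all genes 68.5% were called there on the deposited values. Gsta1 was higher by 5.31 and the efflux pump gene Abcb1a by 2.77. Of the PXR targets, F/F against W/W with vehicle, 4 of 8 were called higher and 3 lower (median log2 fold change 1.73, all genes 0.70), and 4 higher and 3 lower after rescaling (median 0.96), and Slco1a4, an uptake carrier, was higher by 3.17. Nr1i2 itself was not called in these vehicle comparisons on the deposited values (adjusted p = 0.986 for W/F and 0.882 for F/F), and was called lower on rescaled values, with -0.66 and -0.88.

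T0901317 lowered Nr1i3 in W/W livers and its response there differed from that of both mutant genotypes. With vehicle Nr1i3 was 108, 79.7, 77.7 and 82.9 TPM (W/W), 78.7, 64.3, 57.7 and 41.4 (W/F) and 67.7, 30.4, 35.9 and 48.1 (F/F). With T0901317 Nr1i3 was 35.0, 48.5, 41.9 and 58.6 TPM (W/W), 92.2, 96.6, 86.3 and 84.8 (W/F) and 54.7, 65.8, 89.3 and 42.4 (F/F). On chow Nr1i3 was 81.3, 33.2, 51.8 and 37.3 TPM (W/W), 84.4, 78.8, 54.1 and 43.5 (W/F) and 64.3, 17.9, 43.9 and 52.4 (F/F). The 4 W/W T0901317 livers lay below the 4 W/W vehicle livers, and the 4 W/F T0901317 livers lay above the 4 W/F vehicle livers. In W/W livers the log2 fold change was -0.92 ± 0.31 (adjusted p = 0.0498), rescaled -0.99 (adjusted p = 0.0271). In W/F livers it was 0.60 ± 0.31 (adjusted p = 0.0862), rescaled 1.20 (adjusted p = 0.00154) and in F/F livers 0.47 ± 0.31 (adjusted p = 0.227), rescaled 0.73 (adjusted p = 0.102). The difference of responses passed the test in both: 1.52 ± 0.43 (adjusted p = 0.00353), rescaled 2.19 (adjusted p = 1.33e-04) for W/F minus W/W, and 1.39 ± 0.43 (adjusted p = 0.0160), rescaled 1.72 (adjusted p = 0.00540) for F/F minus W/W. Both held in each of the 16 fits that left out 1 library. The W/W response alone stood close to the threshold and was lost without any 1 of 7 of its 8 libraries, the exception being W/W T0901317 replicate 4, with adjusted p from 0.0679 to 0.144. Under T0901317, W/F exceeded W/W by 0.98 ± 0.31 (adjusted p = 0.0381), rescaled 0.99 (adjusted p = 0.0274), a call lost without any 1 of 7 of the 8 libraries, again all but W/W T0901317 replicate 4 (adjusted p from 0.0587 to 0.115). On vehicle Nr1i3 was lower in F/F than in W/W livers by -0.97 ± 0.31 (adjusted p = 0.00510), rescaled -1.82 (adjusted p = 6.09e-06), with no overlap of samples. Its diet difference in W/W livers was not called (0.84, adjusted p = 0.0680) except without W/W chow replicate 1 (0.0211). The difference of diet responses of W/F minus W/W (-0.93, adjusted p = 0.0693) was called without W/W chow 1 (0.0208), W/F chow 4 (0.0364) or W/F vehicle 1 (0.0464), and that of F/F minus W/W (-0.74, adjusted p = 0.164) without F/F chow 2 (0.0219). For Nr1i3 all 4 differences of response, to T0901317 and to the diet, were called on rescaled values. In the annotation 74.9% of the Nr1i3 exon bases also lie in another gene, Tomm40l on the opposite strand, which had 4.41 to 11.3 TPM in the 36 livers. Whether the counting used strand is not given in the sources used here, so reads of the 2 genes cannot be told apart here.

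T0901317 raised most CAR targets in F/F livers. Of the CAR targets in F/F livers given T0901317, 6 of 7 were called higher and 0 lower (median log2 fold change 2.25, all genes -0.24), and 5 higher and 0 lower after rescaling (median 2.18). The share of all genes called there was 35.1%, and 16.3% after rescaling. Cyp2b10, the classical CAR target, rose by 3.49 and Cyp2c29 by 3.71. Cyp2b10 was 0.162, 0.109, 0 and 0.0980 TPM in F/F vehicle and 4.49, 3.83, 22.0 and 35.6 TPM in F/F T0901317 livers, so that it was near 0 in all 4 F/F vehicle livers. Cyp2b10 in W/W livers was 10.6, 9.39, 12.1 and 4.19 TPM with vehicle and 12.4, 23.4, 12.1 and 11.5 TPM with T0901317. Of the CAR targets in W/W livers given T0901317, 2 of 7 were called higher and 0 lower (median log2 fold change 0.68, all genes 0.06), and 2 higher and 0 lower after rescaling (median 0.63), namely Gstm3 with 3.70 and the stress gene Gadd45b with 3.23. Of the CAR targets in W/F livers given T0901317, 4 of 7 were called higher and 1 lower (median log2 fold change 1.16, all genes -0.49), and 4 higher and 1 lower after rescaling (median 1.76). There Gstm3 fell, with -3.57, while Cyp2c29 rose by 2.63. Leaving out W/F vehicle replicate 1 or W/F T0901317 replicate 1 made the lower count 2. Of the CAR targets, F/F against W/W with vehicle, 2 of 7 were called higher and 4 lower (median log2 fold change -1.20, all genes 0.70), and 2 higher and 4 lower after rescaling (median -2.06), with Gstm3 at 6.31 and Cyp2c37 at -4.18. The diet response of F/F minus W/W was tested too: 2 of 7 were called higher and 5 lower (median log2 fold change -2.40, all genes 0.41), and 2 higher and 5 lower after rescaling (median -2.87). Cyp2b9 had -4.64 and Cyp2b10 had -3.33.

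Nr1h4 was called in 1 of the 12 comparisons of 2 groups. Its group means were 146 ± 11.8 TPM (SD, n = 4) on chow, 154 ± 16.7 on vehicle and 124 ± 6.40 under T0901317 in W/W livers. They were 158 ± 23.2, 144 ± 21.4 and 155 ± 8.12 TPM in W/F livers, and 136 ± 43.5, 124 ± 11.2 and 142 ± 14.5 TPM in F/F livers. The single call was the lower level of F/F against W/W livers on vehicle, -0.30 ± 0.14 (adjusted p = 0.0494), rescaled -1.16 (adjusted p = 1.54e-07). The values were 165, 167, 130.4 and 153 TPM in W/W and 135, 128, 108 and 126 TPM in F/F vehicle livers, so the groups overlapped. The call was lost without any 1 of 6 of the 8 libraries, all but W/W vehicle replicate 3 and F/F vehicle replicate 1, with adjusted p from 0.0601 to 0.149. On rescaled values 7 of 12 comparisons of 2 groups were called, among them T0901317 against vehicle in W/F (0.71) and in F/F livers (0.45). The response to T0901317 differed by 0.41 for W/F minus W/W (adjusted p = 0.0764) and by 0.49 for F/F minus W/W (adjusted p = 0.0594). Each was called without W/W vehicle replicate 3 (0.0420 and 0.0375), the first also without W/F vehicle 1 (0.0364) and the second without F/F T0901317 1 (0.0454). All 4 differences of response between genotypes, to T0901317 and to the diet, were called for Nr1h4 on rescaled values. F/F against W/W livers on chow (-0.15, adjusted p = 0.382) was called without F/F chow replicate 1 (0.0197), the liver with 197 TPM.

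Nr0b2 was highest in the W/W vehicle livers and lowest in the F/F vehicle livers. On chow Nr0b2 was 32.5, 45.6, 42.1 and 42.8 TPM (W/W), 45.1, 26.97, 80.4 and 52.9 (W/F) and 50.5, 9.94, 43.7 and 38.7 (F/F). With vehicle Nr0b2 was 72.2, 71.0, 111 and 67.6 TPM (W/W), 72.6, 35.2, 33.6 and 56.7 (W/F) and 34.2, 18.5, 38.6 and 44.3 (F/F). With T0901317 Nr0b2 was 47.1, 88.0, 40.4 and 40.9 TPM (W/W), 58.3, 34.4, 37.9 and 52.5 (W/F) and 62.3, 39.6, 41.1 and 70.3 (F/F). All 4 F/F vehicle livers were below all 4 W/W vehicle livers, a difference of -1.26 ± 0.37 (adjusted p = 0.00295), rescaled -2.10 (adjusted p = 1.22e-05) that held without any 1 of the 8 libraries. W/F vehicle livers overlapped W/W vehicle livers through replicate 1, with -0.73 ± 0.37 (adjusted p = 0.0808), rescaled -1.38 (adjusted p = 0.00214), and were called without that library (adjusted p = 0.0379). The diet difference in W/W livers, 0.94 ± 0.37 (adjusted p = 0.0929), rescaled 1.08 (adjusted p = 0.0458), was called on rescaled values only. The T0901317 response of F/F minus W/W was 1.27 ± 0.52 (adjusted p = 0.0634), rescaled 1.60 (adjusted p = 0.0319), and called without W/W T0901317 replicate 2 (0.0334). The diet response of W/F minus W/W (-0.97, adjusted p = 0.120) was called without W/F chow replicate 2 (0.0493), and that of F/F minus W/W (-0.87, 0.176) without F/F chow replicate 2 (0.0139), the liver with 9.94 TPM. Of the 4 differences of response of Nr0b2, 2 were called on rescaled values.

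FXR targets moved in both directions between F/F and W/W livers on vehicle: 3 of 9 were called higher and 5 lower (median log2 fold change -0.24, all genes 0.70), and 1 higher and 7 lower after rescaling (median -1.10). The share of all genes called there was 76.5%, and 59.1% after rescaling. Slc51b, for a subunit of a bile acid exporter of the basolateral membrane, was higher by 3.41. Slc51a, for the other subunit, did not pass the filter and was not tested. Slc27a5, which couples bile acids to coenzyme A, was lower with -2.17. Slc51b was 0.582, 1.43, 0.852 and 0.554 TPM in W/W vehicle, 14.6, 10.3, 13.9 and 8.69 in W/F vehicle and 9.78, 24.0, 23.2 and 20.4 in F/F vehicle livers. Every mutant vehicle liver lay above every W/W vehicle liver. Of the FXR targets, W/F against W/W with vehicle, 4 of 9 were called higher and 2 lower (median log2 fold change -0.05, all genes 0.52), and 1 higher and 5 lower after rescaling (median -0.72). Under T0901317 in W/F livers, 3 of 9 were called higher and 4 lower (median log2 fold change -0.07, all genes -0.49), and 5 higher and 1 lower after rescaling (median 0.53), with Slc51b at -2.32 and Slc27a5 at 1.25. Of the FXR targets in W/W livers given T0901317, 0 of 9 were called higher and 2 lower (median log2 fold change 0.04, all genes 0.06), and 1 higher and 2 lower after rescaling (median -0.02), namely Baat, which conjugates bile acids, with -0.57, and Fetub with -0.49. Slc51b is also expressed by bile duct cells, whose marker sum rose with it from W/W to F/F vehicle livers, and the part of that sum in its level was not tested.

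Hnf4a passed the test in none of the 12 comparisons of 2 groups and 2 of them had an unadjusted p under 0.05 by limma, whereas 6 were called on rescaled values. Its group means were 312 ± 51.5 TPM on chow, 309 ± 76.0 on vehicle and 250.02 ± 22.5 under T0901317 in W/W livers. They were 356 ± 21.4, 332 ± 42.6 and 310.1 ± 56.2 TPM in W/F livers, and 365 ± 44.5, 291 ± 29.3 and 278 ± 18.5 TPM in F/F livers. The largest spread within a group was in W/W vehicle livers, with 212, 362, 376 and 285 TPM. The diet difference in F/F livers was -0.32 ± 0.14 (adjusted p = 0.0538), rescaled -0.67 (adjusted p = 2.05e-04), and it was called without F/F chow replicate 1 (0.0456) or F/F vehicle replicate 2 (0.0359). T0901317 against vehicle in W/W livers (-0.27, adjusted p = 0.261) was called without W/W vehicle replicate 1 (0.0346), as was the diet response of F/F minus W/W (-0.29, 0.251) at 0.0471. On rescaled values the diet difference was -0.61 in W/F and -0.67 in F/F livers, and 3 of the 4 differences of response between genotypes were called.

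Most targets of HNF4A fell with the diet in the mutant livers, in which their receptor did not pass the test on the deposited values and was called lower on rescaled values, with -0.61 (adjusted p = 4.68e-04) in W/F and -0.67 in F/F livers. In F/F livers on the MASH diet with vehicle against chow, 0 of 12 were called higher and 10 lower (median log2 fold change -0.91, all genes 0.32), and 0 higher and 12 lower after rescaling (median -1.26). Of all genes 55.8% were called there, and 47.0% after rescaling. The glucose-6-phosphatase gene G6pc fell, with -1.74, as did the carboxylesterase Ces3a with -1.73 and the urea cycle gene Otc with -1.20. Of HNF4A targets in W/F livers, 1 of 12 was called higher and 8 lower (median log2 fold change -0.46, all genes 0.39), and 0 higher and 12 lower after rescaling (median -0.96). Of HNF4A targets in W/W livers, 0 of 12 were called higher and 3 lower (median log2 fold change -0.12, all genes -0.05), and 0 higher and 1 lower after rescaling (median 0.01), and without W/W chow replicate 2 the lower count was 1. The diet response of F/F minus W/W passed the test for several targets: 0 of 12 were called higher and 7 lower (median log2 fold change -0.71, all genes 0.41), and 0 higher and 10 lower after rescaling (median -1.19). Under T0901317 more of them rose than fell in the mutants. Of HNF4A targets in W/F livers, 6 of 12 were called higher and 2 lower (median log2 fold change 0.27, all genes -0.49), and 10 higher and 1 lower after rescaling (median 0.88), with Ces3a at 1.54, G6pc at 1.17 and Pck1, the entry enzyme of gluconeogenesis, at -1.26. Of HNF4A targets in F/F livers, 6 of 12 were called higher and 0 lower (median log2 fold change 0.40, all genes -0.24), and 10 higher and 0 lower after rescaling (median 0.67). Ces3a was 2288, 1707, 1520.2 and 1682 TPM in F/F chow, 569.7, 953, 472 and 319.8 in F/F vehicle and 1404, 1461, 1411 and 1179.9 in F/F T0901317 livers. The hepatocyte marker sum, which shares Ttr with this list, was 76564 to 96495, 41054 to 46456 and 61315 to 81345 TPM in the same groups, and its part in these counts was not tested.

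Nr5a2 fell under T0901317 in W/F livers and with the diet in W/W livers under both scalings. On rescaled values its mean was lower with vehicle than on chow in every genotype. The rescaled means on chow and with vehicle were 32.5 and 24.5 (W/W), 35.3 and 26.4 (W/F) and 29.3 and 21.5 (F/F). On chow Nr5a2 was 26.9, 30.4, 27.3 and 27.9 TPM (W/W), 30.1, 29.5, 30.3 and 34.7 (W/F) and 32.9, 32.7, 30.8 and 35.5 (F/F). With vehicle Nr5a2 was 13.4, 22.2, 20.9 and 21.9 TPM (W/W), 25.0, 40.4, 38.8 and 28.9 (W/F) and 26.5, 32.2, 31.0 and 34.3 (F/F). With T0901317 Nr5a2 was 17.0, 17.5, 21.0 and 21.1 TPM (W/W), 14.1, 17.3, 18.8 and 18.7 (W/F) and 23.3, 21.7, 23.7 and 24.4 (F/F). On the deposited scale W/W livers were already low with vehicle and stayed so with T0901317. W/F and F/F livers given T0901317 lay below their vehicle livers there without overlap. T0901317 against vehicle gave -0.89 ± 0.13 (adjusted p = 9.78e-07), rescaled -0.31 (adjusted p = 0.0219) in W/F livers. It gave -0.39 ± 0.13 (adjusted p = 0.0218), rescaled -0.13 (adjusted p = 0.482) in F/F livers, where the deposited call was lost without F/F vehicle replicate 2 (0.0542) or 4 (0.0686) or F/F T0901317 replicate 2 (0.0512). In W/W livers it gave -0.01 ± 0.13 (adjusted p = 0.983), rescaled -0.08 (adjusted p = 0.723). The difference of the W/F and W/W responses was -0.88 ± 0.19 (adjusted p = 2.05e-04), rescaled -0.23 (adjusted p = 0.250). The diet difference in W/W livers was -0.52 ± 0.13 (adjusted p = 0.00821), rescaled -0.40 (adjusted p = 0.0141), lost without W/W vehicle replicate 1 (0.0720), the liver with 13.4 TPM. On vehicle W/F exceeded W/W by 0.73 ± 0.13 (adjusted p = 1.54e-05), rescaled 0.09 (adjusted p = 0.509). F/F exceeded W/W on the deposited scale only, with the sign reversed after rescaling: 0.65 ± 0.13 (adjusted p = 5.09e-05), rescaled -0.18 (adjusted p = 0.180). The diet response differed by 0.59 ± 0.19 (adjusted p = 0.00886), rescaled -0.02 (adjusted p = 0.940) for W/F minus W/W. For F/F minus W/W it was 0.43 (adjusted p = 0.0592) and was called without W/W vehicle 2 (0.0367), W/W vehicle 4 (0.0395) or F/F vehicle 1 (0.0344).

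LRH-1 targets include the bile acid enzymes Cyp7a1 and Cyp8b1. Cyp8b1, the 12-hydroxylase that sets the share of cholic acid, was 443, 209, 258 and 425 TPM in W/W chow, 346, 200.4, 284 and 291 in W/W vehicle and 356, 218, 367 and 309 in W/W T0901317 livers. Cyp8b1 in F/F livers was 508, 530.4, 388 and 366 TPM on chow, 25.4, 12.8, 14.9 and 18.2 with vehicle and 54.0, 80.5, 163 and 78.7 with T0901317. Cyp8b1 in W/F livers was 523, 517, 583 and 346 TPM on chow, 23.1, 25.6, 13.8 and 42.3 with vehicle and 224, 206, 424 and 287 with T0901317. Vehicle livers of both mutant genotypes lay below all other groups. Of the LRH-1 targets, F/F against W/W with vehicle, 1 of 8 was called higher and 6 lower (median log2 fold change -0.81, all genes 0.70), and 0 higher and 7 lower after rescaling (median -1.64), with Cyp8b1 at -3.92 and Cyp7a1, the rate-limiting enzyme of bile acid synthesis, at -1.70. The share of all genes called there was 76.5%, and 59.1% after rescaling. Under T0901317 in W/F livers 3 of 8 were called higher and 1 lower (median log2 fold change 0.30, all genes -0.49), and 7 higher and 0 lower after rescaling (median 0.90), with Cyp8b1 at 3.44. Of the LRH-1 targets in F/F livers given T0901317, 2 of 8 were called higher and 0 lower (median log2 fold change 0.28, all genes -0.24), and 4 higher and 0 lower after rescaling (median 0.55). With the diet in F/F livers 1 of 8 was called higher and 3 lower (median log2 fold change -0.30, all genes 0.32), and 0 higher and 5 lower after rescaling (median -0.63). Of the LRH-1 targets, W/F against W/W with vehicle, 1 of 8 was called higher and 3 lower (median log2 fold change -0.41, all genes 0.52), and 1 higher and 7 lower after rescaling (median -1.06). Cyp7a1 and Cyp8b1 are controlled by FXR, SHP and HNF4A as well as by LRH-1.

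Ppara fell with the diet in the mutant genotypes. On chow Ppara was 81.9, 91.0, 50.8 and 51.0 TPM (W/W), 78.3, 77.5, 50.1 and 51.2 (W/F) and 72.6, 43.9, 48.5 and 47.5 (F/F). With vehicle Ppara was 27.2, 61.6, 29.3 and 44.7 TPM (W/W), 18.6, 51.5, 40.6 and 16.2 (W/F) and 15.9, 21.2, 21.9 and 22.0 (F/F). With T0901317 Ppara was 44.6, 32.0, 55.9 and 74.9 TPM (W/W), 20.6, 23.4, 24.9 and 25.4 (W/F) and 21.1, 22.2, 20.8 and 13.4 (F/F). The F/F livers on the MASH diet all lay at 22.2 TPM or below, under every W/W liver. The diet difference was -1.33 ± 0.30 (adjusted p = 3.49e-04), rescaled -1.66 (adjusted p = 1.54e-05) in F/F livers. In W/F livers, where replicate 2 with vehicle overlapped the chow livers, it was -1.12 ± 0.30 (adjusted p = 0.00163), rescaled -1.61 (adjusted p = 1.43e-05), and in W/W livers -0.77 ± 0.30 (adjusted p = 0.0877), rescaled -0.64 (adjusted p = 0.119), the last called only without W/W vehicle replicate 2 (0.0326), the liver with 61.6 TPM. That the fall differed between genotypes was not shown: the diet response differed by -0.56 (95% interval -1.42 to 0.29) for F/F minus W/W and by -0.36 (-1.21 to 0.50) for W/F minus W/W, neither called. F/F livers were below W/W livers on vehicle, -0.91 ± 0.30 (adjusted p = 0.00685), rescaled -1.74 (adjusted p = 3.47e-06), and under T0901317, -1.33 ± 0.30 (adjusted p = 2.90e-04), rescaled -1.84 (adjusted p = 3.07e-06). Both held in every fit without 1 library. W/F livers were below W/W livers under T0901317, -1.04 ± 0.30 (adjusted p = 0.0203), rescaled -1.04 (adjusted p = 0.0116), which was lost without W/W T0901317 replicate 3 (0.0595) or 4 (0.103) or W/F T0901317 replicate 1 (0.0558). On vehicle the W/F difference (-0.43, adjusted p = 0.198) was called without W/F vehicle replicate 2 (0.0356) and on rescaled values (-1.08, 0.00172). T0901317 against vehicle gave no call in any genotype for Ppara, with 0.35 (W/W), -0.26 (W/F) and -0.07 (F/F).

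Most targets of PPAR-alpha were lower in the mutants under T0901317. Between F/F and W/W livers under T0901317, 1 of 17 was called higher and 14 lower (median log2 fold change -0.66, all genes 0.43), and 1 higher and 16 lower after rescaling (median -1.19). Of all genes 63.2% were called there, and 46.9% after rescaling. Cyp4a14, a fatty acid omega-hydroxylase, was lower with -7.11, and Ehhadh of peroxisomal oxidation with -3.89. Between W/F and W/W livers under T0901317, 0 of 17 were called higher and 11 lower (median log2 fold change -0.88, all genes 0.00), and 0 higher and 10 lower after rescaling (median -0.86). Cyp4a14 was 1340.1, 2165, 1408 and 1556 TPM (W/W), 232, 77.9, 89.5 and 63.4 (W/F) and 6.26, 5.27, 35.8 and 9.56 (F/F) given T0901317. The order W/W above W/F above F/F held without overlap there. With vehicle Cyp4a14 was 271, 889, 1311 and 228 TPM (W/W), 4.05, 22.1, 12.96 and 29.7 (W/F) and 2.23, 2.26, 2.98 and 3.10 (F/F). T0901317 raised targets in W/F livers: 11 of 17 were called higher and 2 lower (median log2 fold change 0.65, all genes -0.49), and 15 higher and 2 lower after rescaling (median 1.25). Cyp4a10 rose by 3.12, while Fgf21, a secreted fasting hormone, fell with -2.24. Of PPAR-alpha targets in W/W livers, 8 of 17 were called higher and 0 lower (median log2 fold change 0.62, all genes 0.06), and 6 higher and 0 lower after rescaling (median 0.55), and 5 were higher without W/W vehicle replicate 4, with Ehhadh at 2.37 and Pdk4, which spares glucose, at 2.30. With the diet in W/W livers, in which Ppara itself was not called, 10 of 17 were called higher and 0 lower (median log2 fold change 0.45, all genes -0.05), and 11 higher and 0 lower after rescaling (median 0.58), and 6 were higher without W/W chow replicate 2. On vehicle, W/F against W/W, 2 of 17 were called higher and 10 lower (median log2 fold change -0.71, all genes 0.52), and 0 higher and 14 lower after rescaling (median -1.38), and 1 was higher without W/W vehicle replicate 4 or W/F vehicle replicate 4. For F/F against W/W 4 of 17 were called higher and 9 lower (median log2 fold change -0.58, all genes 0.70), and 2 higher and 14 lower after rescaling (median -1.45), and 2 were higher without W/W vehicle replicate 1 or F/F vehicle replicate 1 or 2.

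Pparg was higher in F/F than in W/W livers in all 3 treatments on the deposited scale, on chow also after rescaling, and rose with the diet in W/F livers. On chow Pparg was 13.3, 6.52, 9.32 and 13.6 TPM (W/W), 7.39, 17.1, 12.4 and 8.25 (W/F) and 20.2, 20.2, 24.1 and 29.7 (F/F). With vehicle Pparg was 18.7, 12.2, 10.1 and 10.5 TPM (W/W), 20.7, 34.0, 34.1 and 31.7 (W/F) and 25.6, 27.4, 24.9 and 29.5 (F/F). With T0901317 Pparg was 22.0, 17.4, 13.8 and 12.6 TPM (W/W), 18.1, 23.2, 24.7 and 20.8 (W/F) and 23.6, 26.0, 29.6 and 26.9 (F/F). In each treatment the lowest F/F liver lay above the highest W/W liver. F/F against W/W was 1.11 ± 0.22 (adjusted p = 2.03e-04), rescaled 0.75 (adjusted p = 0.0148) on chow. Marker sums moved with it: the macrophage sum was 156 to 233 TPM in W/W and 463 to 736 TPM in F/F chow livers, and the bile duct sum was 50.1 to 61.5 and 720.4 to 981 TPM. The sum of 8 of 8 stellate cell markers was 70.5 to 115 and 285 to 560.3 TPM in the same groups, and the part of these sums in the level of Pparg was not tested. F/F against W/W was 1.04 ± 0.22 (adjusted p = 9.77e-05), rescaled 0.22 (adjusted p = 0.436) on vehicle and 0.68 ± 0.22 (adjusted p = 0.00846), rescaled 0.18 (adjusted p = 0.556) under T0901317, both without a call on rescaled values. All 3 deposited calls held in every fit without 1 library. W/F against W/W was 1.18 ± 0.22 (adjusted p = 2.71e-05), rescaled 0.55 (adjusted p = 0.0483) on vehicle. The diet difference in W/F livers was 1.38 ± 0.22 (adjusted p = 3.24e-06), rescaled 0.91 (adjusted p = 0.00144), with the deposited call held in each fit without 1 library. In F/F livers, which were already high on chow, it was 0.20 ± 0.22 (adjusted p = 0.468), rescaled -0.14 (adjusted p = 0.660), and in W/W livers 0.26 ± 0.22 (adjusted p = 0.516), rescaled 0.39 (adjusted p = 0.276). The diet response of W/F minus W/W was 1.12 ± 0.31 (adjusted p = 0.00337), rescaled 0.52 (adjusted p = 0.220). T0901317 against vehicle in W/F livers was -0.44 (adjusted p = 0.0827), called without W/F vehicle replicate 1 (0.0233). The T0901317 response of W/F minus W/W was -0.78 ± 0.31 (adjusted p = 0.0340), rescaled -0.13 (adjusted p = 0.778). That call was lost without any 1 of 9 of its 16 libraries (W/W vehicle 3 and 4, W/W T0901317 1 and 2, W/F vehicle 2, 3 and 4, W/F T0901317 1 and 4), with adjusted p from 0.0506 to 0.0886.

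Most PPAR-gamma targets rose under T0901317 in W/W livers. There 6 of 8 were called higher and 0 lower (median log2 fold change 1.84, all genes 0.06), and 6 higher and 0 lower after rescaling (median 1.80). The share of all genes called was 10.8%, and 13.5% after rescaling. Lpl, the lipase that frees fatty acids from lipoproteins, rose by 2.72, Mogat1 of triglyceride synthesis by 2.22 and Cidec of the lipid droplet by 2.15. Of PPAR-gamma targets in W/F livers, 1 of 8 was called higher and 4 lower (median log2 fold change -0.57, all genes -0.49), and 3 higher and 2 lower after rescaling (median -0.12), and 2 were higher without W/F vehicle replicate 4 or W/F T0901317 replicate 3 or 4. Of PPAR-gamma targets in F/F livers, 0 of 8 were called higher and 2 lower (median log2 fold change -0.07, all genes -0.24), and 0 higher and 1 lower after rescaling (median 0.20). The difference itself was tested: for the T0901317 response of W/F minus W/W, 1 of 8 was called higher and 6 lower (median log2 fold change -1.83, all genes -0.54), and 1 higher and 5 lower after rescaling (median -1.62), and for that of F/F minus W/W, 0 of 8 were called higher and 6 lower (median log2 fold change -1.91, all genes -0.31), and 0 higher and 6 lower after rescaling (median -1.74). Under T0901317, for W/F against W/W, 0 of 8 were called higher and 6 lower (median log2 fold change -1.84, all genes 0.00), and 0 higher and 6 lower after rescaling (median -1.93). For F/F against W/W, 0 of 8 were called higher and 7 lower (median log2 fold change -1.08, all genes 0.43), and 0 higher and 7 lower after rescaling (median -1.60). Without W/W T0901317 replicate 2 there were 4 lower and 1 higher, and without F/F T0901317 replicate 4 there was 1 higher. Lpl was 9.63, 17.6, 23.1 and 12.4 TPM in W/W vehicle and 97.1, 123, 76.3 and 128 TPM in W/W T0901317 livers. Lpl in F/F livers was 67.1, 91.8, 79.0 and 86.2 TPM with vehicle and 96.8, 48.8, 45.1 and 70.4 TPM with T0901317. With vehicle, every F/F liver lay above every W/W liver. With the diet in W/W livers 5 of 8 were called higher and 0 lower (median log2 fold change 1.17, all genes -0.05), and 5 higher and 0 lower after rescaling (median 1.32). Of PPAR-gamma targets in F/F livers, 5 of 8 were called higher and 0 lower (median log2 fold change 1.59, all genes 0.32), and 5 higher and 0 lower after rescaling (median 1.24). Lpl is also a direct target of the LXRs and, like Fabp4 and Cd36, is expressed by macrophages, whose marker sum is given above. The sum of 4 of 4 adipocyte markers was at most 0.756 TPM in any liver, and Lep was listed at 0 in all of them. The part of the macrophage markers in these counts was not tested.

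On the deposited scale Ppard had the most calls of the 10 receptors, 7 of 12 comparisons of 2 groups, of which 5 were also called on rescaled values in the same direction. Nr1i2 and Ppara also had 5 calls shared by both scales. On rescaled values Nr1i2 had the most calls, 9 of 12, against 5 for Ppard. The share of all genes called in a comparison ran from 0.487 to 76.5% over these 12, and from 0.601 to 59.1% after rescaling. How these counts, and those of Nr1h4 and Hnf4a above, stand against the counts of other genes was not tested. On chow Ppard was 3.11, 2.99, 3.52 and 4.41 TPM (W/W), 3.75, 3.33, 4.00 and 3.67 (W/F) and 4.81, 3.56, 4.998 and 5.20 (F/F). With vehicle Ppard was 3.97, 4.35, 3.68 and 4.01 TPM (W/W), 8.84, 7.95, 8.26 and 7.29 (W/F) and 11.4, 11.2, 8.52 and 10.1 (F/F). With T0901317 Ppard was 4.29, 6.84, 3.92 and 4.51 TPM (W/W), 4.45, 5.45, 5.24 and 5.09 (W/F) and 9.89, 9.39, 7.17 and 7.72 (F/F). The W/F and F/F vehicle livers all lay above every chow liver and every W/W liver on the MASH diet. F/F exceeded W/W by 1.17 ± 0.13 (adjusted p = 1.19e-09), rescaled 0.42 (adjusted p = 0.00106) on vehicle and by 0.71 ± 0.13 (adjusted p = 1.76e-05), rescaled 0.25 (adjusted p = 0.0493) under T0901317. W/F exceeded W/W on vehicle by 0.86 ± 0.13 (adjusted p = 6.36e-07), rescaled 0.30 (adjusted p = 0.0194). The diet difference was 0.95 ± 0.13 (adjusted p = 1.34e-07), rescaled 0.52 (adjusted p = 1.08e-04) in W/F and 1.01 ± 0.13 (adjusted p = 1.02e-07), rescaled 0.68 (adjusted p = 5.01e-06) in F/F livers, while in W/W livers it was 0.16 ± 0.13 (adjusted p = 0.479), rescaled 0.27 (adjusted p = 0.0795). These 5 calls held in every fit without 1 library. The diet response differed by 0.79 ± 0.18 (adjusted p = 4.55e-04), rescaled 0.25 (adjusted p = 0.190) for W/F minus W/W. It differed by 0.85 ± 0.18 (adjusted p = 4.03e-04), rescaled 0.41 (adjusted p = 0.0437) for F/F minus W/W. T0901317 lowered Ppard in W/F livers on the deposited scale, -0.59 ± 0.13 (adjusted p = 1.67e-04), rescaled -0.06 (adjusted p = 0.661), and the response of W/F minus W/W was -0.80 ± 0.18 (adjusted p = 3.45e-04), rescaled -0.22 (adjusted p = 0.242). The response of F/F minus W/W, -0.46 ± 0.18 (adjusted p = 0.0485), rescaled -0.17 (adjusted p = 0.493), was lost without any 1 of 10 of its 16 libraries (W/W vehicle 1, 3 and 4, W/W T0901317 2 and 4, F/F vehicle 1, 2 and 4, F/F T0901317 3 and 4), with adjusted p from 0.0529 to 0.146. F/F against W/W on chow was 0.33 ± 0.13 (adjusted p = 0.0344), rescaled 0.016 (adjusted p = 0.938), with overlap through F/F chow replicate 2 at 3.56 TPM, a call lost without any 1 of 6 of the 8 libraries, all but W/W chow replicate 4 and F/F chow replicate 2 (adjusted p from 0.0528 to 0.110). By group mean Ppard was highest in F/F vehicle livers, then in F/F T0901317 and W/F vehicle livers. The macrophage marker sum was highest in F/F vehicle livers too, with W/F vehicle above F/F T0901317 livers, and its part in the level of Ppard was not tested.

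For most of the 5 PPAR-delta targets, of which Pdk4 and Cpt1a are also in the PPAR-alpha list, the T0901317 response was more negative in mutant than in W/W livers. For the T0901317 response of W/F minus W/W, 0 of 5 were called higher and 4 lower (median log2 fold change -2.16, all genes -0.54), and 0 higher and 3 lower after rescaling (median -1.48), and for F/F minus W/W, 0 of 5 were called higher and 4 lower (median log2 fold change -2.04, all genes -0.31), and 0 higher and 3 lower after rescaling (median -1.70). Pdk4 had -4.02 and -3.36, and the uncoupling protein gene Ucp2 had -3.52 and -2.22. Of the PPAR-delta targets in W/W livers given T0901317, 4 of 5 were called higher and 0 lower (median log2 fold change 1.15, all genes 0.06), and 3 higher and 0 lower after rescaling (median 1.101). Of the PPAR-delta targets, F/F against W/W with vehicle, 5 of 5 were called higher and 0 lower (median log2 fold change 0.68, all genes 0.70), and 2 higher and 1 lower after rescaling (median -0.18), and 3 were higher without W/W vehicle replicate 3. Of all genes 76.5% were called there, and 59.1% after rescaling. Ucp2, which is abundant in macrophages, was higher there by 3.25.

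Rora resembled Nr5a2, with a Pearson correlation of 0.85 over the 36 livers, a description of livers that share groups. On chow Rora was 10.0, 13.6, 10.7 and 11.6 TPM (W/W), 11.5, 11.3, 13.8 and 9.55 (W/F) and 12.7, 9.18, 12.3 and 13.9 (F/F). With vehicle Rora was 7.31, 9.10, 9.64 and 8.22 TPM (W/W), 10.4, 13.5, 13.2 and 10.4 (W/F) and 11.8, 12.6, 13.1 and 14.7 (F/F). With T0901317 Rora was 7.67, 9.69, 8.22 and 7.88 TPM (W/W), 6.38, 6.04, 7.54 and 6.98 (W/F) and 9.17, 10.7, 10.4 and 9.57 (F/F). Of the W/F T0901317 livers 3 lay below every other liver, and the other one, with 7.54 TPM, lay above only W/W vehicle replicate 1 with 7.31 TPM. T0901317 against vehicle was -0.73 ± 0.12 (adjusted p = 3.57e-06), rescaled -0.19 (adjusted p = 0.143) in W/F livers. It was -0.36 ± 0.12 (adjusted p = 0.0197), rescaled -0.11 (adjusted p = 0.552) in F/F livers, lost without F/F vehicle replicate 4 (0.0703). None of the 5 deposited calls of Rora was called on rescaled values. W/F exceeded W/W on vehicle by 0.43 ± 0.12 (adjusted p = 0.00202), rescaled -0.18 (adjusted p = 0.161), and F/F by 0.56 ± 0.12 (adjusted p = 8.91e-05), rescaled -0.23 (adjusted p = 0.0592), both with the sign reversed after rescaling. The diet difference in W/W livers was -0.38 ± 0.12 (adjusted p = 0.0304), rescaled -0.27 (adjusted p = 0.0812). It was lost without W/W chow replicate 2 (0.141) or 4 (0.0597) or W/W vehicle replicate 1 (0.136) or 4 (0.0608). The T0901317 response of W/F minus W/W was -0.70 ± 0.17 (adjusted p = 6.61e-04), rescaled -0.09 (adjusted p = 0.648). The diet response of W/F minus W/W was 0.42 ± 0.17 (adjusted p = 0.0325), rescaled -0.15 (adjusted p = 0.447), lost without W/W chow 2, W/W vehicle 1 or 4, W/F chow 4 or W/F vehicle 2 or 3 (adjusted p from 0.0515 to 0.0868). That of F/F minus W/W was 0.50 ± 0.17 (adjusted p = 0.0151), rescaled 0.07 (adjusted p = 0.780), lost without F/F chow 2 (0.0510). F/F against W/W under T0901317 (0.23, adjusted p = 0.0898) was called without W/W T0901317 replicate 2 (0.0435).

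ROR-alpha targets were led by Cyp7b1, an oxysterol hydroxylase, and Elovl3, which lengthens fatty acids. Of the ROR-alpha targets, W/F against W/W with vehicle, 0 of 8 were called higher and 2 lower (median log2 fold change -0.14, all genes 0.52), and 0 higher and 5 lower after rescaling (median -0.75), and W/W vehicle replicate 3 left out made the higher count 1. Of the ROR-alpha targets, F/F against W/W, 1 of 8 was called higher and 2 lower (median log2 fold change -0.05, all genes 0.70), and 0 higher and 5 lower after rescaling (median -0.85), with 0 higher without W/W vehicle replicate 1. Of all genes 68.5% (W/F) and 76.5% (F/F) were called in these comparisons, and 53.1% and 59.1% after rescaling. Elovl3 was lower in both, with -5.41 and -6.74, as was Cyp7b1 with -2.71 and -2.67. Elovl3 was 107, 222, 359 and 216 TPM (W/W), 9.15, 1.97, 1.01 and 8.38 (W/F) and 0.228, 1.39, 1.98 and 0.623 (F/F) with vehicle. With T0901317 Elovl3 was 168, 128, 137 and 172 TPM (W/W), 69.6, 36.9, 227 and 157 (W/F) and 3.52, 1.15, 3.56 and 8.69 (F/F). Every W/F liver given T0901317 lay above every W/F vehicle liver, and the response of W/F minus W/W was 4.80 for Elovl3 and 3.80 for Cyp7b1.

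**Figure D3:**
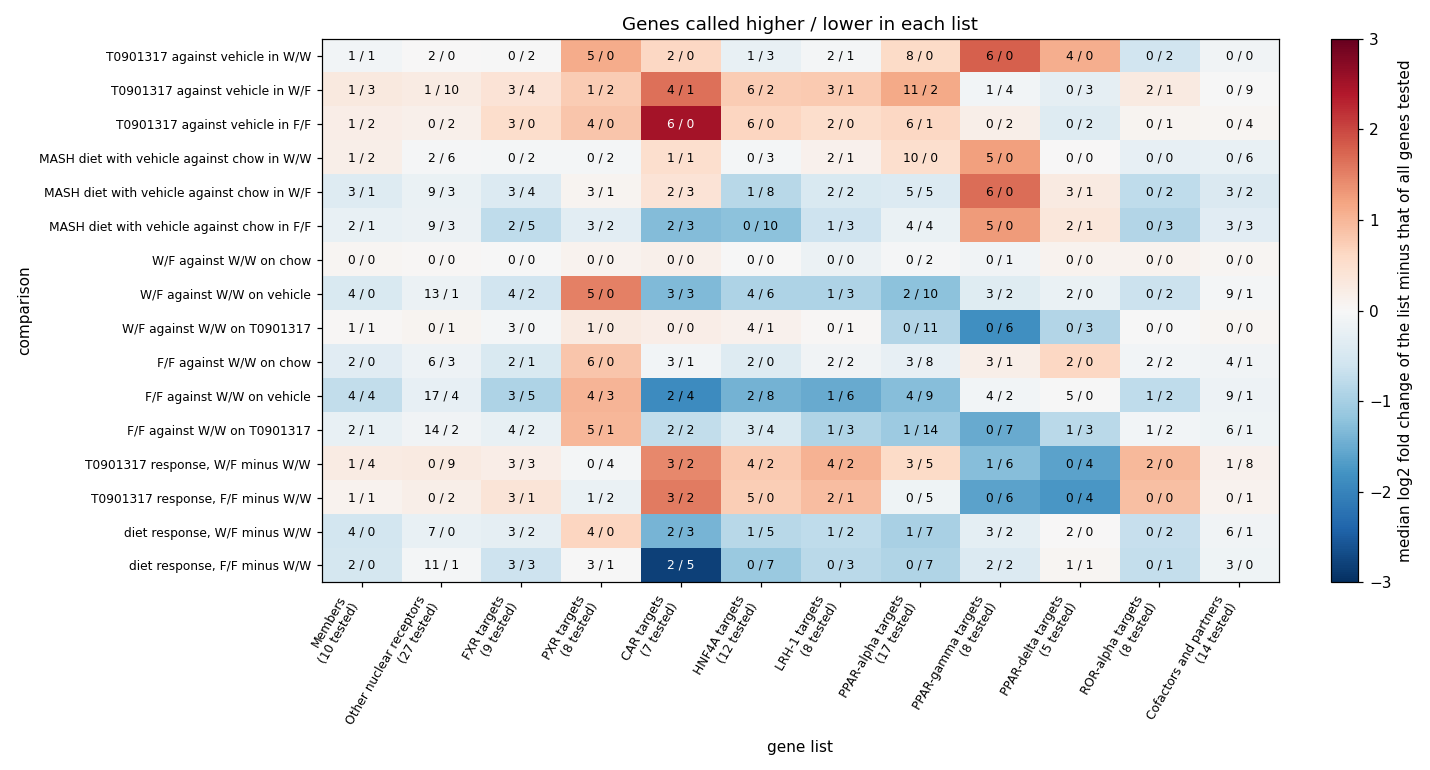
Median log2 fold change of each target list, of the other nuclear receptors and of the cofactors, minus the median of all genes, in 16 comparisons, with the counts of genes called higher and lower in each cell. The 10 receptors and the 11 lists are columns, and the comparisons are rows. In the PPAR-alpha column 14 of 17 genes are lower in F/F than in W/W livers under T0901317.

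Ratios between receptors within a liver do not depend on the scaling of the library. Ppard over Ppara was 0.0566 ± 0.0256 (SD, n = 4) in W/W chow livers, 0.108 ± 0.0340 in W/W vehicle, 0.321 ± 0.165 in W/F vehicle and 0.523 ± 0.142 in F/F vehicle livers. The W/W and F/F vehicle ranges, 0.0706 to 0.146 and 0.388 to 0.719, did not overlap, a difference of 2.30 ± 0.30 on the log2 scale. Pparg over Ppara was 0.366 ± 0.223 in W/W vehicle, 1.35 ± 0.196 in F/F vehicle and 1.43 ± 0.405 in F/F T0901317 livers. In W/F livers it was 1.14 ± 0.574 with vehicle, from 0.661 to 1.96, and 0.921 ± 0.0866 with T0901317. In every F/F liver on the MASH diet the receptor of lipid storage exceeded that of fatty acid oxidation in TPM, and in W/F vehicle livers in some. Nr1i2 over Nr1i3 was 1.22 ± 0.261 in W/W vehicle and 3.05 ± 0.510 in W/W T0901317 livers, but 1.77 ± 0.376 and 1.53 ± 0.0810 in W/F livers. Nr0b2 over Nr1h4 was 0.539 ± 0.208 in W/W vehicle and 0.277 ± 0.1002 in F/F vehicle livers. Nr1i2 over Nr5a2 was 2.69 ± 0.486 in W/W chow, 5.45 ± 1.16 in W/W vehicle and 7.18 ± 0.803 in W/W T0901317 livers. The 5 ratios were compared in 60 pairs of groups by two-sided exact permutation tests. In 22 pairs the p was 0.0286, the smallest that 4 against 4 can give, which after adjustment over the 60 was 0.0779, so 0 passed the threshold of 0.05. The 5 ratios were chosen with the levels known.

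**Figure D4:**
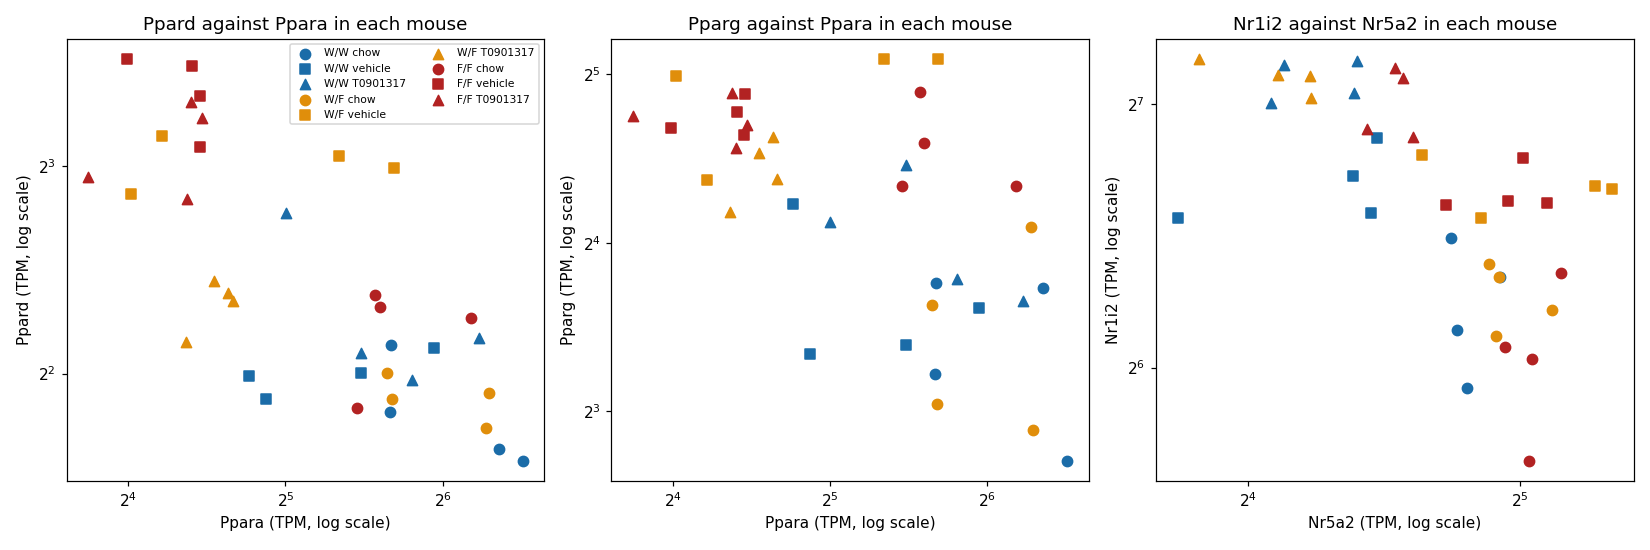
TPM of 1 receptor against another in each of the 36 livers on log axes, Ppard against Ppara, Pparg against Ppara and Nr1i2 against Nr5a2, with colours for genotype and shapes for treatment. F/F livers on the MASH diet lie at the upper left of the first panel, with 22.2 TPM of Ppara or less, and the livers given T0901317 lie at the top of the third.

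Most calls among the other nuclear receptors and the cofactors had the sign of the median gene. Of 38 further receptors 27 passed the filter. Of the other receptors, F/F against W/W with vehicle, 17 of 27 were called higher and 4 lower (median log2 fold change 0.46, all genes 0.70), and 3 higher and 12 lower after rescaling (median -0.21), and 2 were lower without F/F vehicle replicate 4. Nr4a1, an immediate early orphan receptor, was higher by 2.95 and the retinoic acid receptor Rarg by 2.19. Nr4a1 was 3.71, 1.68, 2.52 and 1.91 TPM (W/W), 10.2, 20.6, 47.3 and 31.3 (W/F) and 15.7, 21.0, 26.2 and 45.7 (F/F) with vehicle. Of the other receptors, W/F against W/W with vehicle, 13 of 27 were called higher and 1 lower (median log2 fold change 0.33, all genes 0.52), and 3 higher and 12 lower after rescaling (median -0.25), and 2 were lower without W/W vehicle replicate 3 or W/F vehicle replicate 2. Among cofactors and partners under T0901317 in W/F livers, 0 of 14 were called higher and 9 lower (median log2 fold change -0.49, all genes -0.49), and 5 higher and 2 lower after rescaling (median 0.04), and 1 was higher without W/F T0901317 replicate 1. Ppargc1a, the coactivator of oxidative metabolism, fell there with -1.07 and Ncoa3 with -0.83. Of the cofactors, F/F against W/W with vehicle, 9 of 14 were called higher and 1 lower (median log2 fold change 0.55, all genes 0.70), and 2 higher and 8 lower after rescaling (median -0.24). The lower count there was 0 without W/W vehicle 2 or 4 or F/F vehicle 4 and 2 without F/F vehicle 2.

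Genes with the most similar pattern were ranked by Pearson correlation of log2(TPM + 1) over the 36 livers among the 9225 other genes with a mean of at least 5 TPM, as a description without a test, since livers of a group share their treatment. The closest were Por, the reductase that supplies electrons to cytochromes P450, for Nr1i2 (r = 0.92), Atf6 for Nr5a2 (0.97), Rrp1 for Ppard (0.97), A1cf for Ppara (0.93), Evi5 for Rora (0.90) and Gm3776 for Pparg (0.88). For Hnf4a the closest was Crp (0.81), for Nr1i3 Tk1 (0.76) and for Nr1h4 Nr1i3 (0.74). On rescaled values the closest gene remained so for Nr5a2, Ppara, Ppard and Hnf4a. Among the receptors themselves Ppara and Ppard had r = -0.73, Pparg and Ppard 0.75, and Ppara and Pparg -0.62. The sign of these 3 was the same on rescaled values, with -0.81, 0.52 and -0.51.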

How the data were processed

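The deposited table gives TPM for 49315 genes in 36 libraries. Per the submitters' processing notes the authors used Trimmomatic 0.36, STAR 2.5.2b and featureCounts (Subread 1.5.2) with GRCm38 (mm10); the annotation release and strand setting are not given in the sources used here. Library depth (18.1 to 35.8 times 1000000 reads, median 23.9) was recovered from the steps of low values with GENCODE M21 exon lengths, and 93.7 to 95.6% of low genes gave whole reads within a tolerance of 0.1 read. log2(TPM + 1) of 16638 genes (those reaching 1 TPM in 4 or more samples) was fitted with limma 3.58.1 (R 4.3.3; group means, trend, 27 residual degrees of freedom, Benjamini-Hochberg adjustment, threshold 0.05). The model was tested on simulated data with 200 changed genes, as many up as down, and no shift of the median gene. That test therefore cannot speak to the choice between the 2 scales. Alternatives were a pseudocount of 0.1, a filter at 5 TPM or none, TPM rescaled by median-of-ratios factors over 14786 genes, the replicate number as a block, only the libraries compared, and each library left out. Leaving libraries out of the ratios was added after seeing the data. The receptors, target lists and markers were chosen with earlier results of these data known. Text names up to 4 genes of a list and comparison, those with the largest absolute fold change among called genes, and for likeness the closest gene; that of Nr0b2 is not reported here. Genes of the lists that did not pass the filter were not tested (Slc51a, Cyp2b13, Adipoq, and Bmal1 under that symbol).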

Additional observations from a re-analysis of the deposited data

Results flagged for a closer look

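Of 90 sets of 4 livers (10 receptors in 9 groups), 10 held a value whose gap to the nearest of the others exceeded Dixon's 95% critical value, and chance flags about 1 in 20 such sets. In the W/W vehicle group these were Nr0b2 in replicate 3 (111 TPM), Nr1i3 in replicate 1 (108 TPM) and Nr5a2 in replicate 1 (13.4 TPM). Ppara stood apart in F/F chow replicate 1 (72.6 TPM), F/F vehicle replicate 1 (15.9 TPM) and F/F T0901317 replicate 4 (13.4 TPM). The others were Nr0b2 in W/W T0901317 replicate 2 (88.0 TPM), Nr1h4 in W/F T0901317 replicate 3 (143 TPM), Nr1i2 in F/F vehicle replicate 2 (111 TPM) and Nr5a2 in W/F chow replicate 4 (34.7 TPM).

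Of 40 differences of response between genotypes, 13 passed the test of the difference by limma with Benjamini-Hochberg adjustment, against 30.4 to 58.5% of all genes in the same 4 differences. On rescaled values 16 of 40 passed (17.4 to 44.0% of all genes), of which 3 had passed on the deposited values, and among them Nr1h4 and Nr1i3 had 4 each, Hnf4a 3 and Nr0b2 and Nr1i2 2 each. The response of Nr1i3 to T0901317 was more positive than in W/W livers, by 1.52 on the log2 scale in W/F and by 1.39 in F/F livers, and both were also called on rescaled values. In W/F livers the response to T0901317 was more negative than in W/W livers for Nr5a2 (-0.88), Pparg (-0.78), Ppard (-0.80) and Rora (-0.70), and in F/F livers for Ppard (-0.46). None of these 5 was called on rescaled values. The diet response in W/F minus that in W/W livers was positive for Nr5a2 (0.59), Pparg (1.12), Ppard (0.79) and Rora (0.42), and in F/F minus W/W for Ppard (0.85) and Rora (0.50). Of these 6, the F/F difference of Ppard was also called on rescaled values.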

How the results depend on the processing

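Rescaling the libraries changed the most results. The number of the 10 receptors called became 7 and 6 for the diet in W/F and F/F livers, 8 in W/F minus W/W with vehicle, 4 in F/F minus W/W with chow and 4 for the diet response of F/F minus W/W. The sign turned in 35 of 160 fold changes, of which 23 were called on neither scale. The other 12 were Hnf4a under T0901317 in W/F livers (0.50), in W/F against W/W on vehicle (-0.53) and in F/F against W/W under T0901317 (-0.37); Nr1i2 (-0.088), Nr5a2 (-0.42) and Rora (-0.42) with the diet in W/F livers; Nr5a2 (-0.18) and Rora (-0.23) in F/F against W/W on vehicle; Rora in W/F against W/W on vehicle (-0.18) and in F/F against W/W on chow (-0.30); and Nr5a2 (-0.019) and Rora (-0.15) in the diet response of W/F minus W/W. Which scaling holds was not tested. Without a filter on low values 1 receptor was called under T0901317 in W/W livers, in W/F against W/W under T0901317, in F/F against W/W on chow and in the T0901317 response of F/F minus W/W, where more genes entered the adjustment; the last was also 1 with a pseudocount of 0.1. With only the libraries compared, 1 was called for the diet in W/W livers. A filter at 5 TPM left 159 of 160 fold changes with their direction and side of the threshold, and a pseudocount of 0.1 also 159.

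Leaving out each library in turn gave from 0 to 2 receptors called under T0901317 in W/W livers, 4 to 5 in W/F and 1 to 3 in F/F livers; for the diet 1 to 4 in W/W, 4 in W/F and 3 to 4 in F/F livers. Genotype comparisons of W/F gave 0 on chow, 4 to 5 on vehicle and 0 to 1 under T0901317, and those of F/F gave 1 to 3, 7 to 8 and 3 to 4. Leaving out a library gave 4 to 6 and 1 to 3 for the differences of T0901317 responses in W/F and F/F livers, and 3 to 5 and 2 to 3 for those of diet responses. Correlations of the deviations of same-numbered livers ran from -0.174 to 0.297, and 0 of 12 comparisons had every pair over 0.1. In W/F against W/W under T0901317, 3 of the 4 pairs were over 0.1. A rule that asks for every pair cannot show that same-numbered livers had nothing but the number in common. With the replicate number as a block, 153 of 160 fold changes kept their side of the threshold and 6 were newly called. The T0901317 response of F/F minus W/W was not called for Ppard under the block, and the block gave 4 receptors called for the diet in W/W livers.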

Other observations

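Dbp, a clock output gene whose level swings over the day and which was chosen after its values were seen, spread widely among chow livers and among F/F livers on the MASH diet. Its part in the levels of the receptors was not tested. In chow livers it was 121, 86.0, 64.7 and 27.5 TPM in W/W, 128, 92.4, 15.9 and 71.5 in W/F and 101, 19.7, 30.8 and 18.6 in F/F replicates 1 to 4. Under T0901317 the 4 W/W livers were at 95.1, 88.6, 91.8 and 93.1 TPM. F/F livers ran from 55.7 to 128 TPM with vehicle and from 57.8 to 123 TPM with T0901317. Ppara on chow was likewise split in W/W and W/F livers, with 2 of 4 livers at 77.5 TPM or more and 2 at 51.2 TPM or less in each.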
